A study of Homo sapiens with 26 samples.

Results

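The genes NFYA, NFYB and NFYC encode the 3 subunits of NF-Y, and the values below are those of their guide RNAs in a CRISPR knockout screen of RH4 cells. Guides were taken by the gene name given to them in the count files: 10 for NFYA in pool TF3, and 10 each for NFYB and NFYC in pool TF1. These 30 guides are part of 12342 guide measurements over 12 libraries, and no other library held a guide named for a subunit. All 30 had enough reads to be used.

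NF-Y is a transcription factor that binds the CCAAT sequence found in many promoters. NFYB and NFYC pair through histone-fold domains, NFYA joins the pair, and the assembled trimer contacts the DNA, with the sequence-specific contacts made by NFYA. The factor is broadly expressed and is well known at promoters of cell cycle genes.

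RH4 is an established rhabdomyosarcoma cell line that carries the PAX3-FOXO1 fusion, so every sample below shares that fusion. Each pool is 1 population of RH4 cells infected with 1 guide library, drug selected, and harvested at day 7 after infection. The cells were fixed and stained for myosin heavy chain (MYH), the motor protein that marks mature muscle. FACS then gave an MYH high and an MYH low sample, whose guide cassettes were amplified from genomic DNA and sequenced. There is 1 MYH high and 1 MYH low sample of each pool, with no replicate, so no difference between the arms has a replicate check and no test between them is given. The study asks which knockouts move RH4 cells toward MYH. NFYB and NFYC were measured in the same sort and NFYA in another. A spread given beside a gene is the SD over its guides, which share a target and a pair of samples and are not replicates of the sort.

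Depth was high for every guide of NF-Y. Pool TF1 held 113823697 reads in MYH high and 126788529 in MYH low, and pool TF3 held 53541408 and 44101115. Single NF-Y guides had between 25281 and 721827 reads in an arm. Counts were scaled to CPM, the counts per 1000000 reads of the sample. A ratio below is log2 of the CPM in MYH high over the CPM in MYH low, centred so that the median guide of the pool is at 0. The counting error was small: the widest 95% exact binomial interval of a single NF-Y guide spanned 0.02 to either side on this log2 scale. Reads came through PCR with no molecular identifiers described, so such intervals cover counting error only.

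After centring, most guides against each of the 3 subunits were more abundant in MYH high than in MYH low cells. Of the 30 guides, 27 had a ratio above 0 and 20 reached 0.3 on the log2 scale (1.23-fold), the size used here to call a guide or a gene past the fold. None of them reached -0.3. By the median over guides, NFYC stood at 1.63 (SD 0.91, 3.08-fold), NFYA at 0.56 (SD 0.28, 1.47-fold) and NFYB at 0.34 (SD 0.64, 1.27-fold). In the order of all 983 target measurements of the 10 pools these values were 1st, 4th and 13th. Targets carried by at least 6 pools, such as the guide sets against the fusion, are shared controls. They were left out of this and all other ranks of targets. The pools are separate sorts, each centred on its own median guide, so the order over pools also holds any difference between them. Above 0 only after centring were sgRNA438 of NFYC and sgRNA432 and sgRNA434 of NFYB. With no centring they stood at -0.13, -0.11 and -0.12.

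NFYC carries a histone fold and forms the dimer with NFYB. The guide sgRNA443 had the highest ratio of NFYC, 2.14, with 477 CPM in MYH low and 1911 CPM in MYH high. The guide sgRNA437 rose from 745 CPM to 2895 CPM, a ratio of 2.09. The most abundant NFYC guide, sgRNA441, had 1799 CPM in MYH low and 6342 CPM in MYH high, a ratio of 1.95. Each of these guides was thus close to or above 4-fold in MYH high cells after centring, at 4.40-fold, 4.26-fold and 3.87-fold.

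Another 3 NFYC guides lay slightly lower. The guide sgRNA444 had 444 CPM in MYH low and 1383 CPM in MYH high, a ratio of 1.77. The guide sgRNA445 had 698 and 2105 CPM, a ratio of 1.73. The guide sgRNA436 had 603 and 1580 CPM, a ratio of 1.52. Together with the 3 guides above they form an upper group of 6, separated from the other 4 by a step of 0.88, the widest between neighbouring guides of this gene.

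The lower group of NFYC guides spread down to 0 and below. The guide sgRNA439 had 1185 CPM in MYH low and 1681 CPM in MYH high, a ratio of 0.64, and passed the fold. The guide sgRNA440 had 676 and 727 CPM, a ratio of 0.24, and sgRNA438 had 1068 and 975 CPM, a ratio of 0.004 with a counting interval of -0.007 to 0.02. The guide sgRNA442, the least abundant of the 10, had 280 and 228 CPM, a ratio of -0.16. Of the 10 NFYC guides, 7 passed the fold and 9 lay above 0. The SD over the NFYC guides was the largest of 104 targets in pool TF1 (shared controls left out), where the median SD was 0.15. What sets the 2 groups of guides apart was not tested.

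NFYB is the other histone-fold subunit and was measured in the same cells. Its guides ran over a similar range but were more often near 0. The guide sgRNA427 had 747 CPM in MYH low and 2226 CPM in MYH high, a ratio of 1.71, which lies within the upper group of NFYC. The guide sgRNA435 had 1854 and 4433 CPM, a ratio of 1.39. After a step of 0.59 the guide sgRNA429 followed, with 803 and 1278 CPM, a ratio of 0.81. The first 2 of these guides stood above the other 8.

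The remaining NFYB guides had smaller ratios. The guide sgRNA433 had 438 CPM in MYH low and 622 CPM in MYH high, a ratio of 0.64, and sgRNA428 had 781 and 967 CPM, a ratio of 0.44. These were the last to pass the fold. The guide sgRNA426 had 1435 and 1540 CPM, a ratio of 0.24. The guide sgRNA432 had 693 and 641 CPM and sgRNA434 had 808 and 745 CPM, and both lay at 0.02 after centring. The guides sgRNA430 and sgRNA431 lay at -0.09 and -0.16. Of the 10 NFYB guides, 5 passed the fold and 8 lay above 0. The SD over guides was the next largest of the 104 targets after that of NFYC.

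Whether NFYB passes the fold is therefore less settled than for the other subunits. The median of NFYB lies between guides at 0.24 and 0.44, and leaving out 1 guide moved it between these values, to either side of the fold. With no centring it was 0.21, below the fold. The mean over its guides was 0.50, and the ratio of its reads summed over guides was 0.68 (95% exact binomial interval 0.68 to 0.69), in which the abundant guide sgRNA435 weighs most. All of these values are above 0.

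NFYA, the subunit that recognises the CCAAT sequence, had the smallest SD over guides of the 3, in a pool where that SD was the 23rd largest of 108. The guide sgRNA2654 had 1478 CPM in MYH low and 2748 CPM in MYH high, a ratio of 0.97, and sgRNA2655 had 573 and 1064 CPM, also 0.97. The guide sgRNA2653 had 861 and 1426 CPM, a ratio of 0.81. The guide sgRNA2650 had 1003 and 1467 CPM, a ratio of 0.63. These were the 4 highest, and none reached a log2 ratio of 1 (2-fold), which 6 NFYC and 2 NFYB guides did in the other pool.

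The middle of the NFYA guides lay close together. The most abundant, sgRNA2659, had 2772 CPM in MYH low and 3891 CPM in MYH high, a ratio of 0.57. The guide sgRNA2656 had 672 and 928 CPM, a ratio of 0.55, and sgRNA2651 had 880 and 1212 CPM, a ratio of 0.54. The guide sgRNA2657 had 1296 and 1631 CPM, a ratio of 0.41. Below the fold lay sgRNA2652, with 627 and 721 CPM and a ratio of 0.28, and sgRNA2658, with 2347 and 2396 CPM and a ratio of 0.11. All 10 NFYA guides lay above 0 and 8 passed the fold. Leaving out 1 guide moved the median only between 0.55 and 0.57.

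Set in order of their medians, NFYC was followed by NFYA and then NFYB. The difference between NFYC and NFYA, 1.07, was larger than the SD over guides of either gene, and so was that between NFYC and NFYB, 1.28. This holds for medians: with the mean over guides these differences were 0.61 and 0.69, and with reads summed over guides 0.89 and 0.77, all below the SD of 0.91 over the NFYC guides. The difference between NFYA and NFYB, 0.22, was smaller than either SD, so these neighbours did not differ beyond their spread. Their order turned with reads summed over guides, by which NFYB stood 0.12 above NFYA. NFYA comes from a separate library and sort, so its distance to the others also holds any difference between the pools.

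The number of NF-Y guides past the fold was above the background of the pools. In TF1, 6.48% of the 1019 guides of library targets (the shared control guides left out) reached 0.3, against 7 of 10 for NFYC and 5 of 10 for NFYB. In TF3 it was 9.96% of 1074 guides, against 8 of 10 for NFYA. In the other direction, 2.85% of the guides in TF1 and 8.57% in TF3 reached -0.3, and no NF-Y guide did. Above 0 lay 49.1% of the guides in TF1 and 48.8% in TF3. All of these shares include the NF-Y guides themselves.

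With the shared control guides left out, most of the highest guides of pool TF1 were against NF-Y. A ratio of 1 or more was reached by 0.883% of its library guides, which is 9 guides, and 8 of them target NFYC or NFYB. The 9th was sgRNA534 against PRDM12, just past 1. The 7 highest library guides of the pool were 6 of NFYC and 1 of NFYB. In TF3, 4 library guides (0.372%) reached 1, and 0 of them target NFYA. The highest NFYA guide was 6th among the library guides of that pool.

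By gene, 3.85% of 104 targets in TF1 and 1.85% of 108 in TF3 had a median at or above the fold, and over the 10 pools it was 1.53% of 983. In TF1 these were 4 targets, NFYC and NFYB among them, and in TF3 2 targets, NFYA among them. At least 5 guides past the fold were held by 3 targets in TF1 (2.88%), which include NFYC and NFYB, and by 2 targets in TF3 (1.85%), which include NFYA. A full set of 10 guides above 0, as NFYA had, was seen in 2.44% of the 983 target measurements. With the shared controls left out, NFYC had the highest median of TF1 and NFYA that of TF3, and NFYB was 4th in TF1.

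The targets nearest to each subunit in the order of medians were taken as those most like it, over 1 pair of samples. Just above NFYB stood SMARCE1, a subunit of SWI/SNF chromatin remodellers, at 0.38 (SD 0.17 over 10 guides) and HMGB1, a DNA-bending chromatin protein, at 0.43 (SD 0.30 over 6 guides). Just below it stood ZNF143, a zinc finger factor that binds promoters, at 0.20 (SD 0.13 over 10 guides) and SMAD4, the common mediator of TGF-beta signalling, at 0.15 (SD 0.12 over 10 guides). These 4 differed from NFYB by 0.04 to 0.19, less than the SD over the NFYB guides. The pattern over guides was not the same: all guides of SMARCE1, HMGB1, ZNF143 and SMAD4 lay above 0, and none of them reached 1.

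NFYC had no such neighbour. HMGB1 and SMARCE1 came next, 1.20 and 1.25 below it, and both differences of medians exceed the SD over the NFYC guides. By the mean over guides NFYC stood at 1.19, HMGB1 at 0.42 and SMARCE1 at 0.37, closer than that SD. From reads summed over guides they stood at 1.45, 0.49 and 0.37, further apart than that SD. NFYA was followed in TF3 by ZFP36L1, an RNA-binding protein that promotes decay of AU-rich transcripts, at 0.47 (SD 0.25 over 10 guides). That is 0.09 below NFYA, within the spread of both. All 10 ZFP36L1 guides lay above 0 and 9 passed the fold, the highest at 1.02, above every NFYA guide. The next was CUX2, a homeodomain protein of the CUT family, at 0.25 (SD 0.22 over 10 guides), 0.31 below NFYA.

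The pools carry guides against the PAX3-FOXO1 fusion itself, which give the size of a strong response in the same sorts. In TF1 the set PAX3_Fusion_DBD had a median of 3.84 (SD 1.08 over 10 guides) and FOXO1_fusion a median of 3.35 (SD 0.94 over 11 guides). NFYC reached 42.4% of the first value and 48.5% of the second on the log2 scale, and NFYB 8.89% and 10.2%. In TF3 the sets had medians of 2.71 (SD 0.93) and 2.25 (SD 0.79) over 10 guides each, and NFYA reached 20.6% and 24.8% of them. Both fusion sets were thus lower in the sort that held NFYA than in the sort that held NFYB and NFYC.

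Guide by guide, NFYC met the lower end of the fusion sets. Of the 21 fusion guides in TF1, 18 stood above sgRNA443, the highest NFYC guide, and 3 did not, the lowest of them at 1.08. In TF3, 18 of 20 fusion guides stood above the highest NFYA guide. The PAX3_non-fusion guides, which target PAX3 outside the fusion, had medians of 0.22 (SD 0.09) in TF1 and 0.11 (SD 0.37) in TF3. The FOXO1_non-fusion set had 1 usable guide in TF1, at -0.07, and a median of 0.04 (SD 0.81 over 10 guides) in TF3. In TF3 the highest PAX3_non-fusion guide stood at 1.07 and the highest FOXO1_non-fusion guide at 2.48, both above the highest NFYA guide.

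The negative-control guides had medians of 0.01 (SD 0.28 over 10 guides) in TF1 and -0.02 (SD 0.34 over 10 guides) in TF3, but 1 of them stood high. This guide, sgRNA3239, had a ratio of 0.83 in TF1 and 0.94 in TF3, and was the highest negative control in 7 of the 10 pools. It varied widely between pools, from 4.43 in CF1 to -2.51 in DR1, where it was the lowest of the 10. Above it lay 6 NFYC guides, 2 NFYB guides and 2 NFYA guides, 10 of 30 in all. Above the second highest negative control, at 0.15 in TF1 and 0.36 in TF3, lay 8 NFYC, 6 NFYB and 8 NFYA guides. A ratio of the size seen for most NFYA guides and for the middle NFYB guides was thus also reached by 1 guide labelled as a negative control. Of the 10 negative controls, 1 passed the fold in TF1 and 2 in TF3, against 7, 5 and 8 of 10 guides for NFYC, NFYB and NFYA.

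Other shared controls lay on both sides of 0. PCNA, which holds polymerases on DNA during replication, had a median of 0.23 (SD 0.18 over 7 guides) in TF1 and -0.11 (SD 0.26 over 7 guides) in TF3. MYOD1, a transcription factor that commits cells to muscle, stood at -0.39 (SD 0.26 over 20 guides) in TF1, opposite in direction to NFYB and NFYC, and at 0.06 (SD 0.21 over 10 guides) in TF3.

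NF-Y guides took a larger share of the reads of MYH high cells than of MYH low cells. The NFYC guides held 1.98% of the MYH high reads and 0.798% of the MYH low reads of TF1. The NFYB guides held 1.43% and 0.981%, and the NFYA guides of TF3 held 1.75% and 1.25%. The 95% exact binomial interval of the lowest of these shares, that of NFYC in MYH low, ran from 0.796 to 0.799%, so counting error is far below the differences. The variation between sorts was not measured. An even split of each pool over its guides would give 10 guides 0.912% in TF1 and 0.876% in TF3.

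In MYH low cells NFYC guides were below and NFYA guides above the median of their pools, and NFYB guides were close to it. The median NFYC guide had 687 CPM there, against 815 CPM for the median library guide of TF1, and NFYC was 73rd of 104 targets in that order. NFYB had a median of 805 CPM and was 48th. NFYA had 942 CPM, against 800 CPM for the median library guide of TF3, and was 31st of 108. In MYH high cells the medians were 1630 CPM for NFYC and 1038 CPM for NFYB, against 745 CPM for the pool, and 1446 CPM for NFYA, against 752 CPM. Both arms were taken at day 7 and no earlier sample of these pools was used here, so the loss or gain of these guides in the whole culture was not measured.

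The authors' deposited table scores each target by a beta that compares MYH high with MYH low. Shared controls, such as the guide sets against the fusion, were left out of the ranks, counts and shares given from it. In the authors' deposited table NFYC has a beta of 0.837, the highest of 104 targets of TF1, and a false discovery rate listed as 0. NFYB has the next highest beta of that pool in the authors' deposited table, 0.345, with a p-value of 0.018 and a false discovery rate of 0.286. NFYA has the highest beta of 108 targets of TF3 in the authors' deposited table, 0.406, and a false discovery rate listed as 0. Below 0.05 with a positive beta stood 0.962% of the targets of TF1 and 0.926% of those of TF3 in the authors' deposited table. Of the targets ranked here, with shared controls left out, these are NFYC and NFYA alone. A second rate in the authors' deposited table, from a Wald test, was 0.339 for NFYC, 0.31 for NFYB and 0.282 for NFYA, and it passed 0.05 with a positive beta for 0 targets of either pool. The order of targets depends on the score: by beta NFYB ranked 2nd in TF1, against 4th by the median over guides. By z in the authors' deposited table NFYB ranked 9th and NFYC 13th of 104, and NFYA 4th of 108.

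Genes related to NF-Y were described from 4 lists, beside a background of 1.53% of targets at or above the fold, and a count of 0 in a short list is near that share. Among proteins with histone folds like those of NFYB and NFYC (TFIID and SAGA subunits, the small subunits of DNA polymerase epsilon and the NC2 pair), 11 of 19 listed genes were measured. None of them reached 0.3 and 1 reached -0.3, with a median of 0.005. The highest was POLE3 at 0.17 (SD 0.30) and the lowest TAF4, a TFIID subunit, at -0.42 (SD 0.23). Both come from pool CF3, where the negative-control guides stood at 1.30. Centred on those guides, POLE3 turned to -1.13 and TAF4 stood at -1.72. Over all 983 target measurements the median was -0.01, with 15 at or above the fold and 7 at or below its negative (0.712%).

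Transcription factors known to act at promoters beside NF-Y, such as the Sp, USF, RFX, E2F and SREBP factors, were measured for 10 of 24 listed genes in 11 measurements. Of these 0 reached 0.3 and 0 reached -0.3, with a median of -0.05. The highest was MYBL2, a regulator of late cell cycle genes, at 0.19 (SD 0.18). Centred on negative controls MYBL2 stood at 0.296, still below the fold. The lowest was MYC, a growth-promoting transcription factor, at -0.21 (SD 0.15) in TF1.

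Other factors named for CCAAT-like sequence, the C/EBP, NFI, Y-box and CUT families, were measured for 6 of 14 listed genes, and 0 of them passed the fold in either direction. Their median was 0.05, with CUX2 highest at 0.25 and CEBPG, a C/EBP family member, lowest at -0.07 (SD 0.21). Coactivators reported with NF-Y were measured for 4 of 9 listed genes. With the pools centred on all guides, 0 of these genes lay above 0 (456 of 983 over all target measurements) and 0 passed the fold. They ranged from CARM1, an arginine methyltransferase, at -0.04 (SD 0.22) in CF2 to CREBBP, the acetyltransferase CBP, at -0.19 (SD 0.41 over 30 guides) in CF3. Centred on negative controls CARM1 turned to 0.05 and CREBBP stood at -1.48, past the fold. These counts describe the lists beside all targets; whether the lists differ from other genes was not tested.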

How the data were processed

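Per guide, the authors deposited 1 raw read count for each sample. The submitters' processing notes name FastQC and MAGeCK. Not given in the sources used here are tool versions, read trimming and mismatch settings. Guide sequences and genomic positions are not reported. The score (beta, z) and p-value columns of the authors' deposited tables for TF1 and TF3 are, per the file headers, those MAGeCK writes for its MLE model.

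Counts were scaled to CPM over all guides of a sample. The log2 ratio between arms (MYH high over low) was taken with a pseudocount of 1 CPM, for guides with at least 10 counts over both arms (8 FOXO1_non-fusion guides of TF1 left out), and centred on the pool's median guide. A gene's value is the median over its guides, for at least 3 guides. Targets carried by at least 6 pools were taken as shared controls and kept out of backgrounds and ranks. With 1 sample per arm no test was made. Intervals are exact binomial at 95%. Groups follow the library and arm in the labels. Members, lists and the rule for named genes (nearest neighbours in median, the shared controls, list members past the fold or at a list's ends) were chosen with earlier results of these data known. The result of 1 listed gene is not reported here. PRDM12 was named after its value was seen. The calculation was tested on simulated counts with 1 effect per gene and less spread over guides than NFYA, NFYB and NFYC had. Genes whose guides fall into separate groups were not simulated. Alternatives were other centrings, pseudocounts, count minimums, summaries, thresholds and totals. The 3 symbols matched the RefSeq gene table of GRCh38.p14. Calculations ran in Python 3.11.15 with scipy 1.17.1, numpy 2.4.6 and pandas 2.3.3.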

Additional observations from a re-analysis of the deposited data

How the results depend on the processing

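The ratios of NFYA, NFYB and NFYC stayed above 0 under every alternative run. Centred on the negative-control guides they were 0.57, 0.33 and 1.62, and with no centring 0.48, 0.21 and 1.49. As the mean over guides they were 0.58, 0.50 and 1.19, and from reads summed over guides 0.56, 0.68 and 1.45. With a pseudocount of 10 CPM, NFYB had 0.34 and NFYC 1.61. Leaving out 1 guide at a time gave 0.55 to 0.57 for NFYA, 0.24 to 0.44 for NFYB and 1.52 to 1.73 for NFYC. At a threshold of 1 the guides past the fold numbered 0 for NFYA and 2 for NFYB. With no centring, TF1 had 1 target at or above the fold in place of 4, and 3 at or below its negative in place of 1. TF3 had 0 targets at or below its negative, in place of 1, when centred on negative controls, with a pseudocount of 10 CPM and as the mean over guides. No paired analysis was possible because each pool gives 1 pair of arms, with no second pair that holds the same guides of NF-Y. Counting error was small beside the spread over guides, and variation between sorts was not measured.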
